A study of Rattus norvegicus with 48 samples.

Results

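Lpl and Cd36 encode proteins at successive steps by which fat tissue takes up fatty acids from blood, and their RNA was followed here through the subcutaneous and visceral fat of male rats. The genes were taken by Ensembl ID, ENSRNOG00000012181 for Lpl and ENSRNOG00000005906 for Cd36, and are 2 of the 23481 rows of the deposited table. The table does not pair IDs with symbols, so both names were taken as given with the IDs and could not be checked in the files.

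Lipoprotein lipase, the product of Lpl, is made by adipocytes, carried to the inner wall of capillaries and there splits the triglycerides of circulating lipoproteins into fatty acids. CD36, also called fatty acid translocase, is a membrane protein of adipocytes, endothelial cells and macrophages that promotes the uptake of long-chain fatty acids and also acts as a scavenger receptor. In fat, lipoprotein lipase activity is known to follow feeding and fasting largely through control of the protein, a step that RNA counts do not measure.

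The study sequenced polyA RNA from visceral fat (VAT) and subcutaneous fat (SAT) in 4 groups of rats, with 6 libraries for each depot and group and 48 in all. The groups were late active phase exercise (LAE), late active phase control (LAC), early active phase exercise (EAE) and early active phase control (EAC), where controls were sedentary. The series' design names zeitgeber times 13 and 23, hours on the scale of the light cycle, which were read as early and late. Tissue was collected on postnatal day 61, 24 h after the last exercise session, per the labels, so every exercised group describes rats a day after exercise. All rats were male, and no genotype or strain is stated in the labels used here.

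Column totals ran between 13163675 and 17890033 counts. In each depot 2 libraries stood apart, with a median Spearman correlation to the rest more than 5 median absolute deviations below the depot's median. In SAT these were LAE replicates 4 and 6 (correlations of 0.828 to 0.846, against 0.956 to 0.98 in the other 22 libraries), and in VAT they were EAE replicate 3 and EAC replicate 5 (0.95 to 0.958, against 0.976 to 0.984). In the 2 SAT libraries 879 and 881 genes lay more than 4-fold above the depot median, against 26 to 319 genes in the others. Marker lists for adipocytes and other cell types could not be read without gene symbols, so the depot labels were not checked against markers, and the cells present in these 4 libraries were not examined. Results that rest on these libraries are given with and without them. In whole tissue, fewer cells that use a gene and less RNA per cell cannot be told apart.

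Lpl took up 0.593% to 1.17% of all counts in VAT libraries and 0.212% to 0.898% in SAT libraries, between 35029 and 194271 counts per library. Cd36 had between 680 and 3434 counts per library. Counting error was at most 0.534% for Lpl and 3.83% for Cd36, far below the spread between rats. The levels of the 2 genes are not set against each other, because gene lengths were not used. For Cd36 the RefSeq gene table also lists Cd36l1 and Cd36-ps1, and reads shared between near-identical copies may have been split between rows. The Cd36 row may therefore hold only part of the RNA of the gene. How large a part was not tested, and all Cd36 results here describe this row.

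RefSeq (build GRCr8) gave a promoter for 1 of the 2 genes, Cd36. Its 250 bases before the gene start, chr4:18246332-18246581 on the plus strand, are shown for the RefSeq entry with the symbol Cd36. Without a link between IDs and symbols, this entry could not be tied to the counted row. Capitals mark its single match to TATAAA, which lies on the opposite strand with its first base at position -175 from the start.
Cd36 promoter: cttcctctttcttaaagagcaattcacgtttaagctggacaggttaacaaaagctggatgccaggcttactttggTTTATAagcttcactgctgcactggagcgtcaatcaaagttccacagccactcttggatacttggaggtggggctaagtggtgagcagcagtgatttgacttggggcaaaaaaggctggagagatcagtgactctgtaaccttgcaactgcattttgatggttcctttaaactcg
Of 33469 RefSeq promoter windows of this length, 12.9% hold TATAAA on either strand. Other motifs searched on both strands were the E-box CACGTG, with 0 matches in the Cd36 window against 5.59% of all windows that hold it. The nuclear receptor half-site AGGTCA also had 0 matches, against 14.1% of windows, and so did the CCAAT box, against 34.0%. These are matches of letters and no measure of binding.

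Across the 16 comparisons, 3 of the 32 results for the 2 genes passed edgeR's quasi-likelihood test at an adjusted p of 0.05, and all 3 were higher levels in VAT than in SAT. Lpl was higher in VAT in exercised and in sedentary rats, and Cd36 was higher in VAT in exercised rats. Such calls were common, as edgeR's test called 50.3% of genes between depots in exercised rats and 43.3% in sedentary rats. The Cd36 result depended on the fit. In exercised rats Cd36 did not pass with limma voom or with plain column totals as scaling. In sedentary rats it passed with limma voom, with replicate numbers as a block, with only the groups compared and without the atypical libraries. With all libraries in edgeR's test, neither gene passed in any comparison of exercise with control or of late with early groups. A further 4 results had an unadjusted p under 0.05 in edgeR's test without passing the adjustment. They were both genes in late against early exercised SAT, and Cd36 in early exercise in VAT and in sedentary VAT against SAT. In those comparisons 4791 of 14372, 345 of 13883 and 7394 of 14693 genes had such a p.

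In exercised rats, Lpl had a lowest value of 5807, a median of 9867 and a highest of 11936 CPM (counts scaled to a common library size with TMM factors) in VAT, against 1806, 5828 and 8570 CPM in SAT. The ranges overlapped, but 11 of 12 VAT libraries lay above the SAT median and 7 lay above every SAT library. Lpl averaged 9221 ± 1891 CPM in VAT and 5698 ± 2372 CPM in SAT (SD, n = 12 each), a fitted log2 difference of 0.73 ± 0.17 (SE) or 1.66-fold, with an adjusted p of 0.000348 in edgeR's quasi-likelihood test. In that comparison 50.3% of the 14693 genes tested were called and 23.0% were called as higher in VAT, so a call there is common among genes. The depot tests treat VAT and SAT libraries as independent, although equal replicate numbers may mark the same rat. A fit with replicate numbers as a block is given with the processing below.

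Sedentary rats gave a like picture for Lpl, the lipase. Its lowest, median and highest levels were 6955, 9878 and 12118 CPM in VAT and 3630, 6282 and 8716 CPM in SAT, and all 12 VAT libraries lay above the SAT median. The fitted log2 difference was 0.61 ± 0.17, or 1.53-fold, with an adjusted p of 0.00278 in edgeR's test, where 43.3% of genes were called and 21.6% were called as higher in VAT.

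Cd36, the uptake receptor, had 123, 155 and 220 CPM as lowest, median and highest values in the VAT of exercised rats, against 36.7, 126 and 181 CPM in their SAT. In those rats 11 of 12 VAT libraries lay above the SAT median, but only 2 lay above every SAT library. The fitted log2 difference was 0.44 ± 0.14, or 1.35-fold, with an adjusted p of 0.0107 in edgeR's test. In sedentary rats Cd36 had 113, 143 and 169 CPM in VAT and 85.8, 109 and 199 CPM in SAT. There the highest single value belonged to SAT, and no VAT library lay above all SAT libraries. The fitted log2 difference in sedentary rats was 0.29 ± 0.14, with an adjusted p of 0.0942 in edgeR's test. Without SAT EAC replicate 2, the library with the highest Cd36 level in SAT, it was 0.38 with an adjusted p of 0.0293, in a fit that called 42.4% of genes.

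The depot differences were also fitted without the 4 atypical libraries. In exercised rats the log2 difference was then 0.60 for Lpl (adjusted p = 0.000118 in edgeR's test) and 0.29 for Cd36 (adjusted p = 0.0228). In sedentary rats it was 0.64 for Lpl (adjusted p = 1.69e-05) and 0.32 for Cd36 (adjusted p = 0.00826), so all 4 passed there. In these fits 52.2% of all genes were called in exercised rats and 53.4% in sedentary rats, so a call was again common among genes. With these libraries left out, the Cd36 differences of exercised and sedentary rats were nearly equal.

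That Cd36 passed in exercised rats and not in sedentary rats does not show that the depots differ by exercise. Tested directly, the depot difference of exercised rats minus that of sedentary rats was 0.24 ± 0.29 for Cd36 in the late groups (adjusted p = 0.712 in edgeR's test) and 0.05 ± 0.29 in the early groups (adjusted p = 1.00). For Lpl the same interaction was 0.24 ± 0.33 in the late groups and 0.01 ± 0.33 in the early groups, and 0 of 2 genes passed in either phase, where 0% of all genes did. Without the atypical libraries the late interaction turned sign, to -0.13 for Lpl and -0.12 for Cd36.

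The size of the depot difference depends on scaling. TMM factors, which adjust for differences in library composition, moved the VAT minus SAT difference of every gene up by 0.17 on the log2 scale in exercised rats and by 0.16 in sedentary rats, relative to plain column totals. On column totals, the Lpl difference was 0.58 in exercised rats (adjusted p = 0.00113 in edgeR's test) and 0.44 in sedentary rats (adjusted p = 0.0129). The Cd36 difference in exercised rats was 0.28 on column totals, with an adjusted p of 0.0701 in edgeR's test. That scaling called 55.9% of genes in exercised rats and 47.4% in sedentary rats. With DESeq2 size factors in place of TMM, the Cd36 difference in exercised rats was 0.44 with an adjusted p of 0.00934 in edgeR's test. Lpl thus passed under all 3 scalings in both kinds of rats, and Cd36 in exercised rats passed with TMM and DESeq2 size factors but not on column totals.

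**Figure D1:**
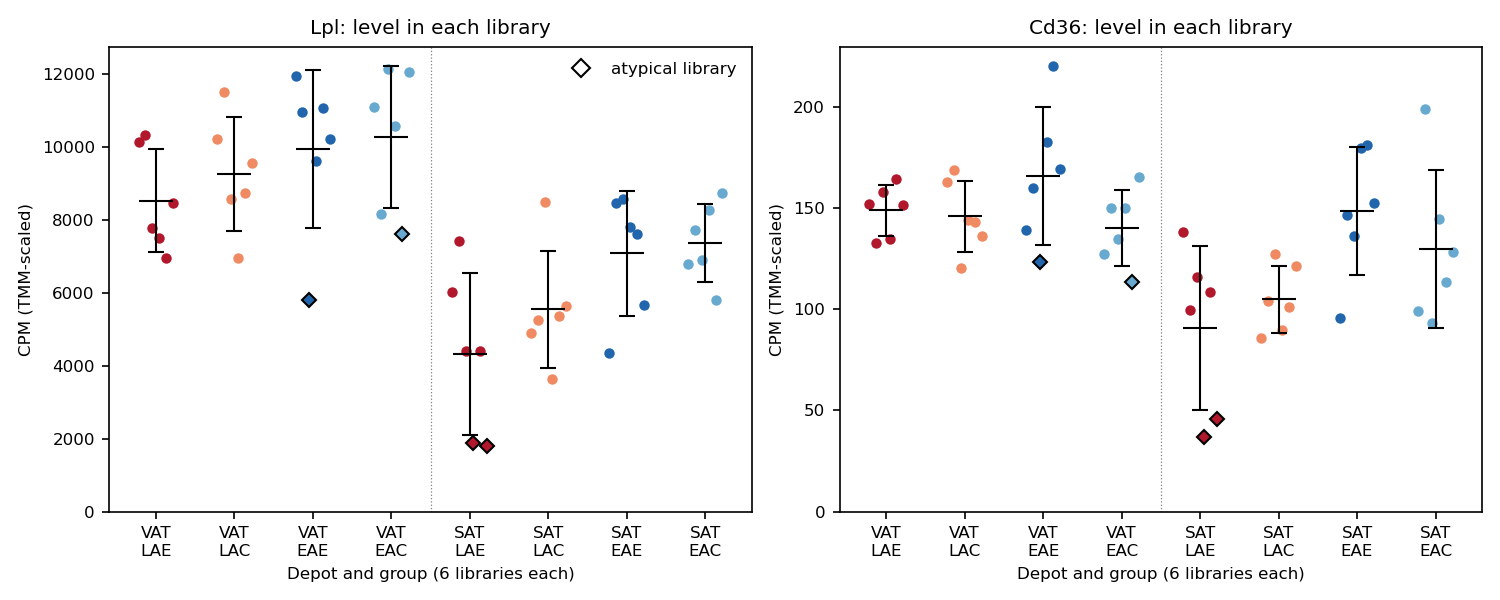
Levels of Lpl (left) and Cd36 (right) in CPM by depot and group, with a point per library, bars for the mean and SD of 6 libraries, and diamonds for the 4 atypical libraries. With all 6 libraries, the lowest group mean of both genes is that of SAT after late exercise (4324 CPM for Lpl and 90.7 CPM for Cd36), and every group overlaps with its neighbours.

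Within the groups, the order of mean Lpl levels put all 4 VAT groups above all 4 SAT groups when CPM were scaled with TMM factors. VAT averaged 8518 ± 1408 CPM in LAE, 9248 ± 1554 in LAC, 9924 ± 2167 in EAE and 10262 ± 1946 CPM in EAC (SD, n = 6 each). SAT averaged 4324 ± 2223 CPM in LAE, 5545 ± 1605 in LAC, 7073 ± 1704 in EAE and 7358 ± 1077 CPM in EAC. No step between neighbours in that order exceeded the pooled SD of the pair. Sorting the means keeps such steps small, so for either gene they do not tell whether groups differ. On column totals the order of the depots broke at 1 place, with 7704 CPM in VAT LAE and 7774 CPM in SAT EAC.

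Cd36 followed another order, in which the VAT and SAT groups were mixed. VAT averaged 148.9 ± 12.5 CPM in LAE, 145.9 ± 17.6 in LAC, 165.8 ± 34.1 in EAE and 140.1 ± 18.6 CPM in EAC (SD, n = 6 each). SAT averaged 90.7 ± 40.5 CPM in LAE, 104.9 ± 16.7 in LAC, 148.6 ± 31.6 in EAE and 129.7 ± 38.8 CPM in EAC. Here too no step between neighbours exceeded the pooled SD of the pair, and SAT EAE stood above VAT LAC and VAT EAC. On column totals the mean of VAT LAE was 134.6 CPM, which moved it by more than the SD of its libraries.

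Group against group, the libraries of 6 and 6 overlapped for both genes in all 12 pairs that differ in phase, exercise or depot alone. Among all genes, VAT and SAT did not overlap in either direction for 13.7% in LAE, 21% in LAC, 8.58% in EAE and 11% in EAC. Late and early groups did not overlap for 8.01% of genes in exercised VAT, 6.06% in sedentary VAT, 3.74% in exercised SAT and 6.21% in sedentary SAT. Exercised and control groups did not overlap for 0.547% of genes in VAT and 1.74% in SAT in the late phase, and for 0.0648% in VAT and 0.132% in SAT in the early phase. So 0 of 2 genes stood apart in any of these pairs.

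The comparison of late with early groups asks whether the levels differ between the active phases, in rats that exercised and in rats that did not. In the SAT of exercised rats, Lpl had 1806, 4411 and 7424 CPM as lowest, median and highest values in LAE, against 4336, 7709 and 8570 CPM in EAE. In LAE 2 libraries lay below every EAE library, and 4 EAE libraries lay above every LAE library. The log2 difference was -0.72 ± 0.29 with a 95% interval of -1.32 to -0.12 and an adjusted p of 0.0884 in edgeR's quasi-likelihood test.

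Cd36 in the same SAT libraries had 36.7, 104 and 138 CPM as lowest, median and highest values in LAE, against 95.7, 149 and 181 CPM in EAE. As for Lpl, 2 LAE libraries lay below every EAE library and 4 EAE libraries lay above every LAE library. LAE differed from EAE by -0.72 ± 0.26 on the log2 scale with an interval of -1.25 to -0.19 and an adjusted p of 0.0553. So 0 of 2 genes passed edgeR's test where 17.3% of 14372 genes did, although both had an unadjusted p under 0.05. DESeq2's Wald test called both, with adjusted p of 0.0473 for Lpl and 0.0318 for Cd36, and it called 22.4% of all genes.

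These SAT differences rest in part on the atypical libraries. LAE replicates 4 and 6 were the lowest 2 of the 24 SAT libraries for both genes. Lpl stood at 1889 CPM in replicate 4 and 1806 CPM in replicate 6, which is 3.38-fold and 3.54-fold below the median of the other 22 libraries. Cd36 stood at 36.7 CPM in replicate 4, 3.23-fold below that median, and at 45.9 CPM in replicate 6, 2.58-fold below it. The part of the genes raised in the same libraries in the low values was not tested.

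Without the 4 atypical libraries, SAT LAE averaged 5563 ± 1450 CPM for Lpl and 115.4 ± 16.5 CPM for Cd36 (SD, n = 4). The log2 difference of LAE from EAE in SAT was then -0.34 for Lpl (adjusted p = 0.320 in edgeR's test) and -0.36 for Cd36 (adjusted p = 0.229). Leaving out 1 library at a time, Lpl passed without LAE replicate 2 (adjusted p = 0.0220 in edgeR's test), and Cd36 passed without LAE replicate 1 (adjusted p = 0.0238), LAE replicate 3 (adjusted p = 0.0489) or EAE replicate 1 (adjusted p = 0.0365). These fits called 23.5% of genes without LAE replicate 2, 19.3% without LAE replicate 1, 19.4% without LAE replicate 3 and 19.9% without EAE replicate 1.

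In the SAT of sedentary rats, Lpl had 3630, 5306 and 8489 CPM as lowest, median and highest values in LAC, against 5788, 7309 and 8716 CPM in EAC, and 5 of 6 LAC libraries lay below every EAC library. The remaining LAC library, at 8489 CPM, lay among the EAC values. LAC differed from EAC by -0.41 ± 0.29 on the log2 scale with an adjusted p of 0.553 in edgeR's test. That fit shares its spread with all SAT groups, the atypical LAE libraries included. The adjusted p for Lpl was 0.211 in edgeR's test without the atypical libraries and 0.143 with only the groups compared. With limma voom it was 0.0512, so Lpl passed in none of these fits. Cd36 had 85.8, 103 and 127 CPM in LAC, against 93.3, 121 and 199 CPM in EAC, and differed by -0.30 ± 0.26 (adjusted p = 0.633). Without EAC replicate 2 the Cd36 difference was -0.14. Here 0 of 2 genes passed, where 3.22% of all genes did. Without the atypical libraries the sedentary SAT differences were -0.40 for Lpl and -0.30 for Cd36, beside the -0.34 and -0.36 of exercised SAT given above.

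In the VAT of exercised rats, Lpl had 6948, 8102 and 10327 CPM as lowest, median and highest values in LAE, against 5807, 10569 and 11936 CPM in EAE, with the EAE minimum belonging to the atypical replicate 3. The log2 difference was -0.23 ± 0.16 with an adjusted p of 0.311 in edgeR's test. Without the atypical libraries it was -0.35 with an adjusted p of 0.0475, in a fit that called 24.5% of genes, and without EAE replicate 3 alone it was -0.35 with an adjusted p of 0.0666. Cd36 had 133, 152 and 164 CPM in LAE, against 123, 165 and 220 CPM in EAE, and differed by -0.17 ± 0.11 (adjusted p = 0.304). In that comparison 0 of 2 genes passed edgeR's test with all libraries, where 21% of 13883 genes did. With limma voom, Lpl passed there (-0.35, adjusted p = 0.0377), in a fit that called 3835 genes.

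Among sedentary rats, Lpl in VAT had 6955, 9129 and 11494 CPM in LAC, against 7610, 10824 and 12118 CPM in EAC. Cd36 had 121, 143 and 169 CPM in LAC, against 113, 142 and 165 CPM in EAC. The log2 differences of -0.16 ± 0.16 for Lpl and 0.05 ± 0.11 for Cd36 had adjusted p of 0.598 and 0.832 in edgeR's test, and 0 of 2 genes passed where 11.3% did. The 95% interval for Cd36, -0.18 to 0.28, leaves room for a modest difference in either direction.

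Whether the phase difference itself differed between depots was tested in the fit of all 48 libraries. In exercised rats the VAT difference minus the SAT difference was 0.49 ± 0.33 for Lpl (adjusted p = 0.371 in edgeR's test) and 0.56 ± 0.29 for Cd36 (adjusted p = 0.225), and 0 of 2 genes passed where 7.43% did. In sedentary rats it was 0.26 ± 0.33 for Lpl and 0.37 ± 0.29 for Cd36, and 0 of 2 genes passed where 0% of genes did. The exercised values were 0.012 for Lpl and 0.14 for Cd36 without the atypical libraries. A phase difference that differs between depots was therefore not shown for either gene.

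**Figure D2:**
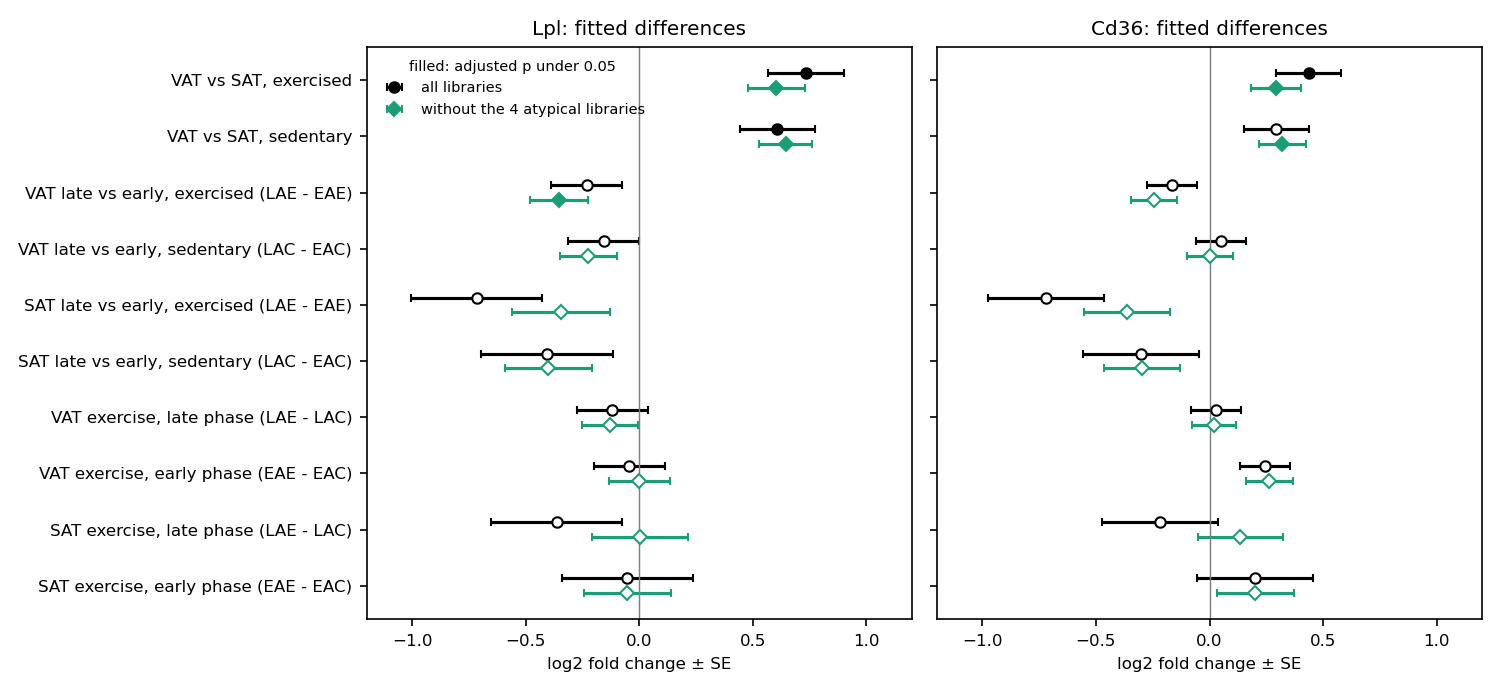
Fitted log2 fold changes with SE for Lpl (left) and Cd36 (right) in 10 comparisons, with circles for all libraries, diamonds for the fit without the 4 atypical libraries, and filled symbols where the adjusted p is under 0.05. The depot differences lie on the right, and the SAT difference between late and early exercised rats shortens from -0.72 with all libraries to -0.34 for Lpl and -0.36 for Cd36 without the atypical ones.

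Exercise was compared with control within each phase and depot, which asks whether the levels differ a day after the last session. In the late phase, SAT had 1806, 4411 and 7424 CPM of Lpl in LAE, against 3630, 5306 and 8489 CPM in LAC. The 2 lowest LAE libraries, both atypical, lay below every control library, and the remaining libraries overlapped. The log2 difference was -0.36 ± 0.29 for Lpl (adjusted p = 0.403 in edgeR's test) and -0.22 ± 0.26 for Cd36 (adjusted p = 0.586), and 0 of 2 genes passed where 11.5% did. Without the atypical libraries the values were 0.0039 for Lpl and 0.14 for Cd36, so that neither kept its sign. The share of all genes called fell too, to 310 of 14505 without these libraries and to 0 of 13790 with only the groups compared.

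VAT in the late phase showed a difference near 0 for Cd36, 0.03 ± 0.11 with an interval of -0.20 to 0.26, and one of -0.12 ± 0.16 for Lpl. The adjusted p were 0.959 and 0.837 in edgeR's test, and 0 of 2 genes passed where 0% of genes did. The LAE and LAC values of both genes overlapped nearly throughout, with 1 Lpl library of LAE below every LAC library.

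In the early phase, Cd36 was the gene with the wider difference. In VAT it had 123, 165 and 220 CPM in EAE, against 113, 142 and 165 CPM in EAC, and 3 EAE libraries lay above every EAC library. The log2 difference was 0.25 ± 0.11 with an unadjusted p of 0.0351 and an adjusted p of 1.00 in edgeR's test, so it did not pass. In SAT, Cd36 had 95.7, 149 and 181 CPM in EAE, against 93.3, 121 and 199 CPM in EAC, a difference of 0.20 ± 0.26.

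Lpl differed by less between EAE and EAC. EAE differed from EAC by -0.04 ± 0.16 in VAT on the log2 scale, with a 95% interval of -0.37 to 0.28, and -0.05 ± 0.29 in SAT, with an interval of -0.65 to 0.55. In both depots 0 of 2 genes passed, and 0% of all genes were called by edgeR. In the 8 comparisons where edgeR called 0 genes, between 131 and 2464 genes had an unadjusted p under 0.05. DESeq2's Wald test called between 0 and 183 genes in these comparisons and limma voom between 0 and 200, and neither called Lpl or Cd36.

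The exercise difference was also compared between phases. Late minus early, it was -0.07 ± 0.22 for Lpl and -0.22 ± 0.16 for Cd36 in VAT, and -0.31 ± 0.41 for Lpl and -0.42 ± 0.36 for Cd36 in SAT. The SAT values without the atypical libraries were 0.0559 for Lpl, with the sign turned, and -0.0661 for Cd36. In each depot 0 of 2 genes passed edgeR's test, where 0% of genes did. The comparisons above share groups, each group entering several of them, so their values are given side by side and are not independent of each other.

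The spread between rats of a group was also described for Lpl and Cd36, and a difference in spread between the genes was not tested. The biological coefficient of variation, the spread between libraries of a group beyond counting error, was 34.9% for Lpl and 31.1% for Cd36 in SAT, where the median gene had 22.1%. In VAT it was 18.5% for Lpl and 13.7% for Cd36, where the median gene had 13.7%. Part of the SAT spread lies in the 2 atypical LAE libraries. The coefficient of variation of CPM in SAT LAE was 51.4% for Lpl and 44.6% for Cd36 with all 6 libraries. It was 26.1% for Lpl and 14.3% for Cd36 with the other 4. With all libraries, this coefficient was higher for Cd36 only in SAT EAC, at 29.9% against 14.6% for Lpl. The SE of the sedentary SAT phase difference of Lpl was 0.29 with all libraries and 0.19 without the atypical ones.

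Both genes varied together across SAT libraries. Pearson's r of log2 CPM between Lpl and Cd36 was 0.853 and Spearman's rho 0.695 over the 24 SAT libraries (permutation test with 100000 resamples, adjusted p = 0.0001 and 0.00135 over 10 relations). Without the 2 libraries farthest from the median Lpl level, which were the 2 atypical ones, r was 0.598. Taken as deviations from the group means and without the atypical libraries, r was 0.516 over 22 libraries (adjusted permutation p = 0.035) and rho 0.493 (adjusted permutation p = 0.053).

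In VAT the relation did not pass. There r was 0.341 and rho 0.261 over 24 libraries, with adjusted permutation p of 0.174 and 0.35. As deviations from the group means r was 0.41 (adjusted permutation p = 0.0942), and it was 0.0577 without the 2 libraries farthest from the median. Cd36 and Lpl share every library in these correlations, so library composition enters both.

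**Figure D3:**
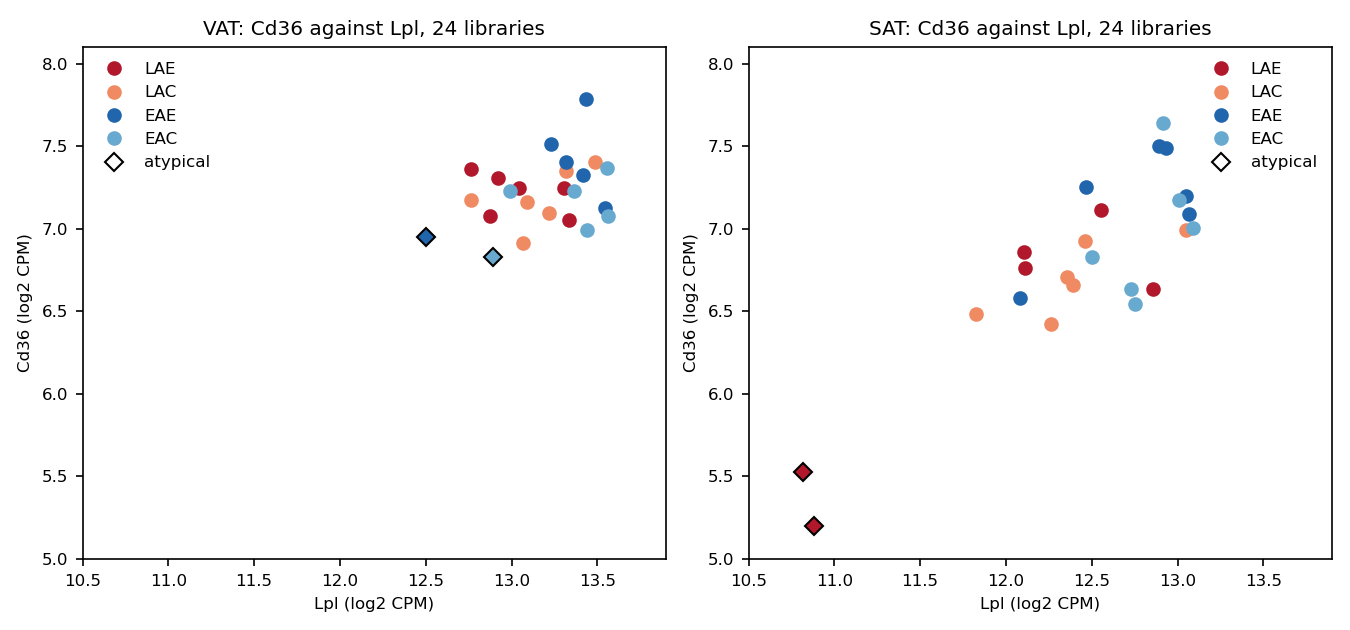
Cd36 against Lpl in log2 CPM for the 24 VAT (left) and 24 SAT (right) libraries, coloured by group, with diamonds for the atypical libraries. In SAT the 2 atypical LAE libraries lie far below the rest on both axes, and the other 22 libraries have r = 0.598.

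The same-numbered VAT and SAT libraries were also compared. As deviations from the group means, Pearson's r between VAT and SAT was 0.146 for Lpl and 0.325 for Cd36 over 24 pairs, with adjusted permutation p of 0.569 and 0.174, and rho was 0.104 and 0.403. Neither relation passed, and the labels do not state that equal numbers mark the same rat.

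The balance of the 2 genes within a library, the log2 ratio of Lpl to Cd36 counts, needs no scaling between libraries. It averaged 5.83 ± 0.31 in VAT LAE, 5.98 ± 0.21 in VAT LAC, 5.89 ± 0.32 in VAT EAE and 6.18 ± 0.27 in VAT EAC (SD, n = 6 each). In SAT it averaged 5.54 ± 0.37 in LAE, 5.69 ± 0.25 in LAC, 5.56 ± 0.29 in EAE and 5.86 ± 0.35 in EAC. The VAT ratio was between 1.22 and 1.26 times the SAT ratio in each of the 4 groups. None of 12 two-sided exact permutation tests passed Benjamini-Hochberg adjustment, the smallest p being 0.0584 for VAT against SAT in LAC (adjusted p = 0.301). Exercise against control gave ratios of 0.818 in VAT and 0.813 in SAT in the early phase, with exact p of 0.123 and 0.136. The atypical SAT libraries, low for both genes, had log2 ratios of 5.69 and 5.30, inside the range of the other SAT libraries.

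**Figure D4:**
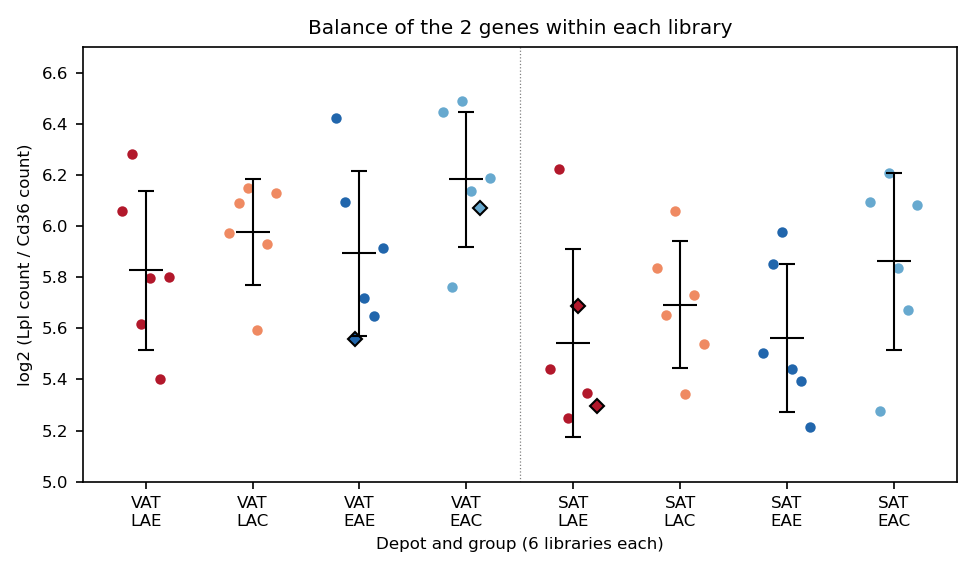
Log2 ratio of Lpl to Cd36 counts in each library by depot and group, with bars for the mean and SD of 6 libraries and diamonds for the atypical libraries. The VAT means lie between 5.83 and 6.18 and the SAT means between 5.54 and 5.86, and the groups overlap.

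Genes with the most like pattern were ranked by the lower of their Pearson r in the 2 depots, each over 24 libraries, among 10523 genes. For Lpl the first was ENSRNOG00000002135, with r of 0.919 in VAT and 0.942 in SAT, and the next ENSRNOG00000051307, with 0.918 and 0.927. Without the atypical libraries these were 0.883 in VAT and 0.849 in SAT for ENSRNOG00000002135, and 0.883 and 0.923 for ENSRNOG00000051307. For Cd36 the first was ENSRNOG00000020371, with r of 0.782 in VAT and 0.797 in SAT, and the next ENSRNOG00000010805, with 0.75 and 0.894. These were, without the atypical libraries, 0.706 in VAT and 0.531 in SAT for ENSRNOG00000020371, and 0.687 and 0.659 for ENSRNOG00000010805. By the lower r of the depots, Cd36 ranked 1799 in likeness to Lpl, and Lpl ranked 1311 in likeness to Cd36. Within a depot, Cd36 ranked 2946 in VAT and 469 in SAT for Lpl, and Lpl ranked 2012 in VAT and 182 in SAT for Cd36.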

How the data were processed

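PolyA RNA from about 80 mg of fat was sequenced as 50-nt single-end reads, an average of 21 M per library, with RNA integrity numbers over 9, per the labels' protocols. The authors deposited estimated counts per Ensembl gene, as whole numbers. The submitters' processing notes name Salmon 1.4.0 and rn6 (a genome build), while the annotation release is not given in the sources used here. Replicates are separate rats within a group, per the labels. All 48 columns were matched to a sample through the library names in the labels.

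The members and lists were chosen with earlier results of these data known. Without a link between IDs and symbols (0 rows of the gene table at hand carry an Ensembl ID), the lists of pathway genes and cell type markers were not analysed here. The rule for other named genes was the most like pattern, at most 2 IDs for each gene.

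Counts, rounded to whole numbers (they already were), were tested over all genes with edgeR 4.0.16 in R 4.3.3. Settings were TMM, filterByExpr, a quasi-likelihood fit and Benjamini-Hochberg adjustment at 0.05, in fits of the 24 libraries of a depot or of all 48. The fits were also run on simulated counts without atypical libraries, so that run does not cover the part of such libraries in the results. CPM use TMM library sizes, and log2 CPM a prior count of 2. Errors of fold changes are SE, taken as the absolute log2 fold change over the square root of the F statistic of edgeR's test. The 95% intervals use these SE and the fit's degrees of freedom. The likeness of genes was taken over those with a mean of at least 5 CPM in each depot. Alternatives were DESeq2 1.42.0 (size factors and Wald test), limma 3.58.1 voom with quality weights, no filter, a replicate block, leaving out each library, and fits restricted to the groups compared. Column totals, the fit without the atypical libraries and the ratio of the 2 genes were chosen after seeing the data. Counting errors cover counting only.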

Additional observations from a re-analysis of the deposited data

How the results depend on the processing

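Of the 32 results for Lpl and Cd36, all kept their sign and their side of the threshold with DESeq2 size factors and without a filter on low counts. DESeq2's Wald test called the late minus early difference of exercised SAT for both genes (-0.71 for Lpl and -0.71 for Cd36) and for 22.4% of all genes. With limma voom, the VAT late minus early difference of exercised rats passed for Lpl (-0.35), where 3835 of 13883 genes did. Under voom the VAT minus SAT difference of Cd36 passed in sedentary rats (0.32) and not in exercised rats (0.27). Signs turned under voom for Cd36 in late exercise in SAT (0.0497) and in the depot-by-exercise interactions (-0.0668 for Cd36 early, -0.14 for Lpl late, -0.0211 for Cd36 late). The VAT minus SAT difference of Cd36 in sedentary rats also passed with only the groups compared (0.30, adjusted p = 0.0212). With the replicate block it passed too (0.32, adjusted p = 0.0474), and the block changed no other call. A call is common in this depot comparison, where edgeR's main fit called 43.3% of genes. Equal numbers were not taken as pairs in the main depot tests, and the labels do not state a pairing. In 15 of 24 pairs of depots the deviations correlated over 0.1, with r between -0.086 and 0.194. The own number was the best match among the 6 of its group in 17 of 24 pairs, more than random numbering would give. Equal numbers may therefore mark the same rat, which the main depot tests ignore.

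On column totals, the exercised SAT phase difference of Cd36 passed edgeR's test (-0.73, adjusted p = 0.0407), where 2517 of 14372 genes did. The VAT minus SAT difference of Cd36 in exercised rats did not pass (0.28), and late exercise in VAT turned sign for Cd36 (-0.0516). Without the 4 atypical libraries, Lpl passed in VAT late minus early of exercised rats (-0.35) and Cd36 in VAT minus SAT of sedentary rats (0.32). The fits without them called 24.5% and 53.4% of genes in these comparisons. Signs turned there for late exercise in SAT (0.0039 for Lpl, 0.14 for Cd36), the SAT exercise-by-phase interaction of Lpl (0.0559), early exercise in VAT for Lpl (0.00021) and the late depot-by-exercise interaction (-0.13 for Lpl, -0.12 for Cd36). The cause of these changes was not tested.

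Leaving out 1 library at a time (576 fits of a result), 550 kept sign and call, 21 turned sign and 5 gained a call. The exercised SAT phase difference lay between -0.94 and -0.56 for Lpl and between -0.88 and -0.56 for Cd36, and the sedentary VAT minus SAT difference of Cd36 between 0.25 and 0.38. Signs turned in differences near 0: early exercise for Lpl in SAT (-0.12 to 0.0618) and in VAT (-0.11 to 0.0651), late exercise for Cd36 in VAT (-0.018 to 0.0737), and the early depot-by-exercise interaction (-0.10 to 0.13 for Lpl, -0.12 to 0.13 for Cd36). Depth was no limit for either gene, since counting error was at most 3.83%.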
